A study of Mus musculus with 24 samples.

Results

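The AP-1 family transcription factors described here were 10 genes taken by name: Fos, Fosb, Fosl1 and Fosl2 of the Fos family, Jun, Junb and Jund of the Jun family, Batf3, Atf3, and the small Maf gene Maff. All 10 were present among the 23366 genes of both deposited matrices. RNA had been measured by a modified SMART-Seq2 protocol, which amplifies full-length cDNA, in 24 libraries of mouse (C57BL/6) CD8+ T cells, 3 in each of 8 groups. Every library was made from 1000 sorted cells, and all cultures started from sorted naive CD8+ cells that were CD62L high and CD44-. WT cells were E8i-Cre- Nr3c1 fl/fl and cKO cells were E8i-Cre+ Nr3c1 fl/fl, so both genotypes carried the floxed Nr3c1 allele, the gene of the glucocorticoid receptor. E8i-Cre is driven by a Cd8a enhancer that is active in mature CD8 T cells.

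Plates coated with anti-CD3 and anti-CD28, each at 1 µg/ml, provided the stimulus in all groups. The 4 day 3 groups were WT Ctrl, WT Dex, cKO Ctrl and cKO Dex, in which Dex is the synthetic glucocorticoid dexamethasone at 10 nM, present during the 3 days of stimulation. The 4 day 9 groups were WT cells only, with no added agent (Ctrl), with Dex at 10 nM, with the cytokine IL27 at 25 ng/ml, or with both (Dex+IL27). These had been stimulated for 3 days, rested for 3 days in IL2 at 5 ng/ml and restimulated for 3 days with the same agents. Libraries of WT groups were numbered 1 to 3 and those of cKO groups 4 to 6. Nothing in the labels says whether the 3 libraries of a group came from separate animals, so the p-values measure the spread between these libraries, which may be technical.

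AP-1 is a dimer of basic leucine zipper proteins. Jun proteins pair with each other or with Fos proteins, and the pair binds TGANTCA or TGACNTCA sites, while BATF3 and ATF3 join with Jun proteins, and small Maf proteins such as MAFF lack a transactivation domain. In T cells, receptor and CD28 signals switch on Fos and Jun genes, and AP-1 binds together with NFAT at cytokine genes, or, through BATF proteins, with IRF4. The ligand-bound glucocorticoid receptor is known to restrain transcription at AP-1 sites through contact with AP-1 proteins. That repression acts on the protein, and an RNA measurement shows only the transcripts of its subunits and target genes.

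The estimated counts of a library added up to 14221883 at the lowest and 19018440 at the highest, and the ribosomal RNA gene Rn45s took 10.5% to 13.2% of them at day 3. At day 9 its share moved with the groups, at 8.95% to 9.25% in Ctrl, 14.1% to 15% in Dex, 13.8% to 14.5% in IL27 and 15.8% to 16.4% in Dex+IL27 libraries, and its part in the day 9 results was not tested. Nr3c1, which checks the genotype labels, was at 16.5, 18.3 and 14.9 CPM (counts scaled to library size) in the WT Ctrl day 3 libraries and at 7.10, 8.20 and 7.20 CPM in the cKO Ctrl ones, a log2 difference of -1.14 ± 0.15 (SE, as for all log2 values below; edgeR adjusted p = 0.00086). With Dex it was at 21.4, 19.9 and 19.2 CPM in WT and at 5.32, 5.73 and 8.18 CPM in cKO libraries. The cKO libraries held less Nr3c1 RNA but not none, and the labels do not say which part of the gene was floxed. The 6 CD8 T cell genes listed (Cd8a, Cd8b1, Cd3e, Cd3d, Cd3g and Cd2) summed to between 1348 and 2099 CPM in every library, and genes listed for other cell types ranged from absent to abundant. Of the B cell genes Pax5 was at 0 CPM in every library and Cd79b at 6.26 to 20.7 CPM. Of the myeloid genes Lyz2 reached at most 0.106 CPM, but Itgam reached 11.0 CPM and Cd68 lay at 1.55 to 14.9 CPM. Cd4 reached 3.19 CPM, and the 5 CD4 T cell genes summed to between 14.1 and 29.5 CPM. The 5 NK cell genes summed to between 526 and 1407 CPM, mostly Nkg7 and Klrk1, which activated CD8 T cells also express, while Ncr1 reached at most 0.106 CPM. In the chi-square comparison of replicate counts, IL27 library 1 stood apart from its group, at 25.3 and 15.2 per degree of freedom against 4.21 to 13.5 for all other replicate pairs. To a lesser degree so did cKO Dex library 6, at 13.5 and 10.15 against 4.31 for libraries 4 and 5. Dex+IL27 library 2 was at 9.28 and 12.4 against 6.54 for libraries 1 and 3. Fewer cells of a type and less RNA per cell cannot be told apart in such bulk libraries.

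Levels can be compared between genes only per length, as TMM-scaled FPKM, which divides fragments by gene length and library size. On that scale Junb, a Jun protein that dominates in activated T cells, had the highest mean of the members in every group. Its group means ran from 199 ± 16 FPKM (SD, n = 3) in Dex+IL27 cells at day 9 to 347 ± 32 FPKM in Ctrl cells at day 9. With IL27 and with Dex+IL27 the ranges of Junb and Batf3 overlapped, and in Dex+IL27 library 2 Batf3 was higher (208 against 193 FPKM). Batf3, a partner of Jun proteins known for its role in cross-presenting dendritic cells and in CD8 memory, ranged from 39.8 ± 3.0 FPKM in cKO Ctrl cells at day 3 to 243 ± 11 FPKM in Dex cells at day 9. Atf3, a stress-induced factor, followed at 20.2 ± 3.2 to 52.4 ± 5.5 FPKM. Jun lay between 6.30 ± 0.82 and 17.4 ± 2.2 FPKM and Fosl2, which encodes FRA2, between 3.79 ± 0.12 and 7.72 ± 0.62 FPKM. Fosl1 (FRA1) stayed at or below 3.16 ± 1.1 FPKM and Jund, the growth-restraining Jun protein, at or below 1.67 ± 0.46 FPKM. Fos, at 12 ± 1.9 FPKM in WT Dex cells at day 3, was at 0.280 ± 0.33 FPKM in Dex+IL27 cells at day 9. Maff and Fosb had group means of at most 0.650 ± 0.12 and 0.207 ± 0.045 FPKM.

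**Figure D1:**
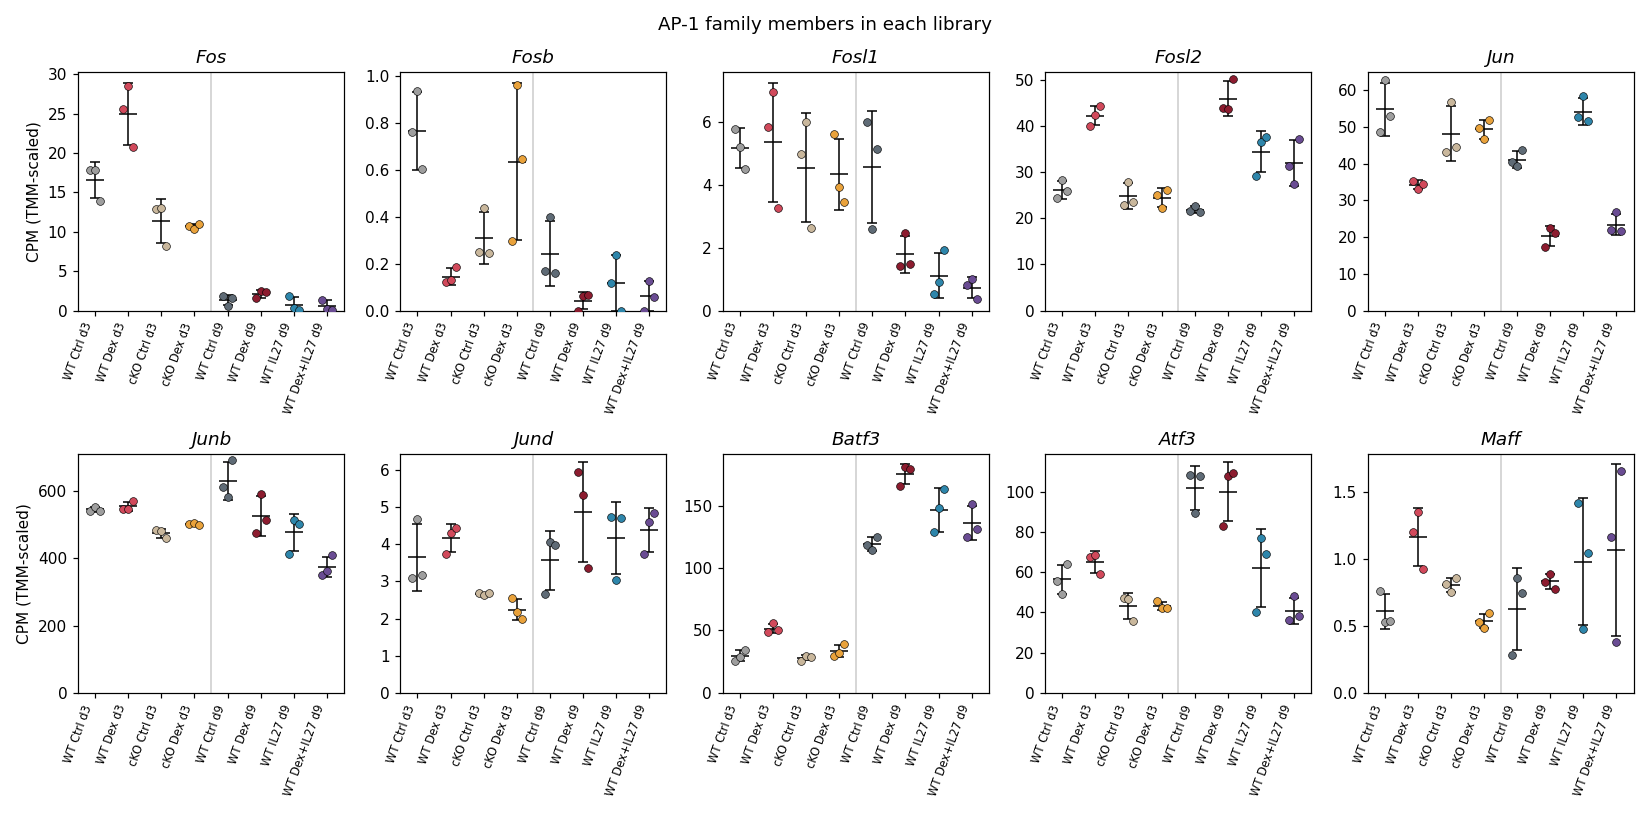
Each panel plots 1 AP-1 gene, with its TMM-scaled CPM in each of the 24 libraries as points and the group mean ± SD as a bar; the vertical line separates day 3 (left) from day 9 (right). Jun is lower and Fosl2 and Batf3 are higher with Dex alone in every WT library of both days, Fos is at 8.18 CPM or more in every day 3 library and below 2.5 CPM in every day 9 library, and each panel has its own axis from 0.

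Together the 10 genes summed to 406 ± 4.4 FPKM (SD, n = 3) in WT Ctrl cells at day 3 and 591 ± 46 FPKM in Ctrl cells at day 9. Junb made up 73.9% ± 1.5 of that sum in WT Ctrl cells at day 3 and 58.6% ± 1.0 in Ctrl cells at day 9, and Batf3 10.4% ± 1.4 and 28.8% ± 0.87. With Dex the Batf3 share was 16.4% ± 0.93 at day 3 and 41.0% ± 1.7 at day 9. It was 39.5% ± 1.7 with IL27 and 44.4% ± 2.7 with Dex+IL27, where Junb was at 47.2% ± 3.2. Fos made up 1.98% ± 0.30 of the sum in WT Ctrl cells at day 3 and 0.108% ± 0.047 at day 9. Day 3 and day 9 cells differ in their whole culture history, with which the day cannot be told apart, and the level difference between the days was not tested.

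**Figure D2:**
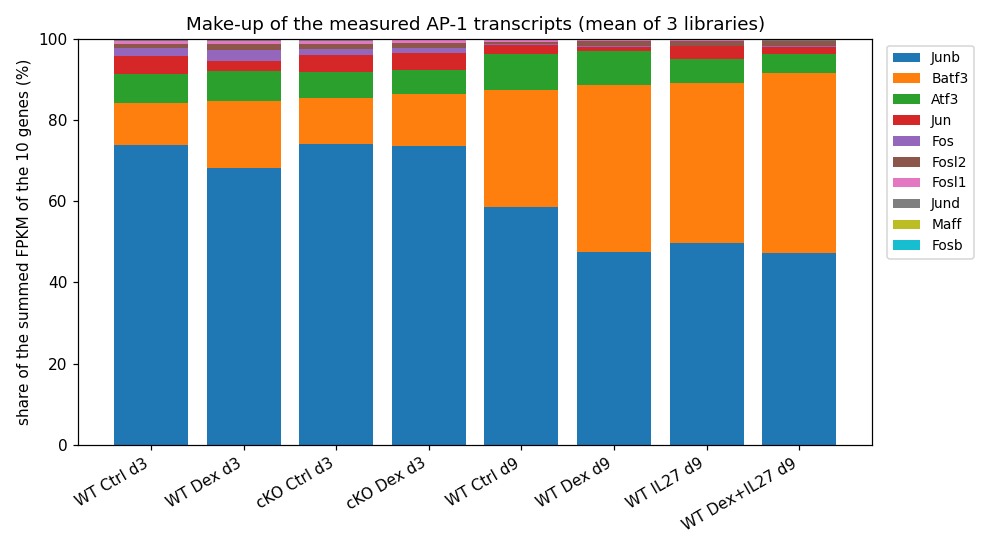
Stacked bars give the mean share (%) of each gene in the summed FPKM of the 10 AP-1 genes, for the 3 libraries of each group. Junb and Batf3 fill most of every bar, and the Batf3 share is 28.8% or more in all day 9 groups against 16.4% or less at day 3.

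The first comparison asks what Dex does to the family in activated WT cells at day 3. Jun fell, Fosl2 and Batf3 rose, and these changes were each between 1.59-fold and 1.75-fold. Fos rose and Fosb fell as well, with less secure tests, and Fosb met the low-count filter only through groups where it was high. All 10 members passed the low-count filter, and by the quasi-likelihood test of edgeR (Benjamini-Hochberg adjusted p under 0.05) 3 were higher and 2 lower with Dex, where 9.43% of the 11967 genes tested passed, 4.93% higher and 4.5% lower. The median log2 change of the 10 was 0.20, against 0.0064 over all genes tested.

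Jun, the founding AP-1 protein, was at 48.7, 62.8 and 53.1 CPM in the WT Ctrl libraries and at 35.4, 33.0 and 34.6 CPM in the WT Dex libraries. The 3 Dex libraries lay below all Ctrl libraries, with a log2 change of -0.67 ± 0.11 (SE; adjusted p = 0.00045), a 1.59-fold fall. Fosl2 stood at 24.3, 28.2 and 25.9 CPM without Dex and at 40.0, 42.3 and 44.2 CPM with it. The groups did not overlap, and the log2 change was 0.69 ± 0.10 (adjusted p = 0.00014). Batf3 read 25.9, 28.5 and 34.5 CPM in Ctrl and 48.9, 55.6 and 50.1 CPM in Dex libraries. Here too every Dex library was higher, by a log2 change of 0.81 ± 0.11 (adjusted p = 0.00015). The ratio of Fosl2 to Jun, both in FPKM, was 0.244 to 0.272 in the WT Ctrl libraries and 0.614 to 0.696 in the WT Dex libraries.

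The stretches of 250 bases before the start of these genes are shown because Jun, Fosl2 and Batf3 carried the most secure changes and because Jun is known to respond to AP-1 at its own promoter. The sequences are RefSeq's, on build GRCm38.p6 and read 5′ to 3′ along the gene's strand, for Jun at chr4:95052223-95052472 (minus strand), Fosl2 at chr5:32136222-32136471 (plus strand) and Batf3 at chr1:191098164-191098413 (plus strand). Capitals mark a match to 1 of 3 motifs searched on both strands: the AP-1 site TGANTCA, the longer TGACNTCA, which ATF and CREB proteins also bind, and the glucocorticoid receptor half-site pair ACANNNTGT.
Jun: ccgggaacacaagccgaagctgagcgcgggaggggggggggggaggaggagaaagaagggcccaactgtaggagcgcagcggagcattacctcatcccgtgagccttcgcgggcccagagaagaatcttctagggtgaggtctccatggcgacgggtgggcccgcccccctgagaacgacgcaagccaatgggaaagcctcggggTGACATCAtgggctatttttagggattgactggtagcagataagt
Fosl2: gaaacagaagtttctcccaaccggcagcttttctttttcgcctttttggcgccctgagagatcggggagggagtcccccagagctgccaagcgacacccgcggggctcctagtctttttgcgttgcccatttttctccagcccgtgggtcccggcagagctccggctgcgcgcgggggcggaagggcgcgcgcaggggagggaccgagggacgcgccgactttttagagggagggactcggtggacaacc
Batf3: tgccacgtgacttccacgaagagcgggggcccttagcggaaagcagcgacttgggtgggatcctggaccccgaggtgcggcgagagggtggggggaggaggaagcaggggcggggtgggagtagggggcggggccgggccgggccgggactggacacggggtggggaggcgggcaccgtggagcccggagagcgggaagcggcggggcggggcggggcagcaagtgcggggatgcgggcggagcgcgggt

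The only match in these 3 stretches was TGACATCA, a TGACNTCA match, 45 to 38 bases before the Jun start. TGACNTCA occurs in 7.49% of the 32851 promoters of the same length in the RefSeq table, TGANTCA in 6.75% and ACANNNTGT in 5.84%. Of the 9 members with a promoter in that table (all but Fosl1), Jun and Maff held a TGACNTCA match, none held TGANTCA, and Jund held the ACANNNTGT match. These 9 members had 11 promoters, because Maff had several, and its matches lay in different ones. The shares of all promoters are per promoter, so they do not match this count per gene. A match describes the letters only, and binding at these windows was not measured.

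Fos, the classic partner of Jun and a rapid target of receptor signals, was at 17.8, 17.9 and 13.9 CPM in WT Ctrl and at 25.6, 28.5 and 20.8 CPM in WT Dex libraries. Every Dex library was higher, with a log2 change of 0.60 ± 0.16 (adjusted p = 0.025), but the call was lost without WT Ctrl library 3, WT Dex library 1 or WT Dex library 2 (adjusted p = 0.104, 0.083 and 0.122), among 6 fits with a library left out. Fosb, a close relative of Fos, was near the limit of detection, with 12, 16 and 9 counts in Ctrl and 2, 2 and 3 counts in Dex libraries. It met the low-count filter through WT Ctrl and cKO Dex libraries, so its entry to the test depended on the groups compared. Its log2 change was -2.35 ± 0.61 (adjusted p = 0.020), and of 6 such fits it passed only without WT Ctrl library 3. With limma on log2(FPKM + 1), which compresses low genes, it was -0.22. The remaining 5 members did not pass. Among them Junb was at 540 to 552 CPM without and 546 to 570 CPM with Dex, with a log2 change of 0.03 ± 0.04 whose 95% interval runs from -0.06 to 0.12. Maff, a partner of the larger Maf and CNC proteins, had 12, 9 and 8 counts without and 20, 21 and 15 with Dex (log2 0.93 ± 0.39, adjusted p = 0.163), and Atf3 had a log2 difference of 0.21 ± 0.11 (adjusted p = 0.251). Fosl1 and Jund had differences of 0.05 ± 0.30 and 0.19 ± 0.23.

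**Figure D3:**
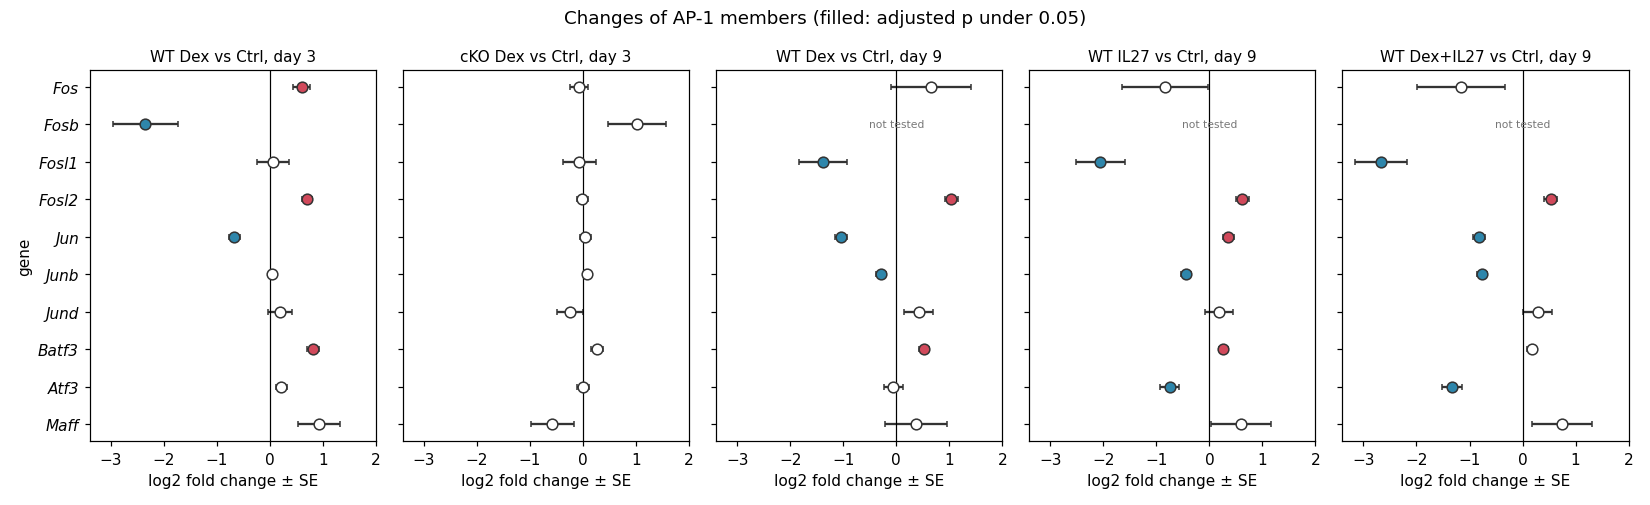
Points give the log2 fold change ± SE of each AP-1 gene in 5 comparisons with the Ctrl group of the same genotype and day; filled points have an adjusted p under 0.05 (red higher, blue lower). Fosl2 is higher in every WT comparison shown, Jun is lower in each one that includes Dex and higher with IL27 alone, and no point is filled for cKO cells.

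Whether the response needs the receptor was not tested, because the cKO libraries held less Nr3c1 RNA but not none. Dex was compared with Ctrl in these cKO cells as well. There, 0 of 10 members passed with Dex, as did 0 of 11967 genes (0%; 0% higher, 0% lower) by edgeR. The count over all genes was 26 of 18379 without the low-count filter. It was 1 with a block for the replicate number, with only the groups compared, or without cKO Ctrl library 5. In the main fit, 1 member (Batf3) and 399 genes reached an unadjusted p under 0.05, and 0 members passed with DESeq2 or with limma on FPKM. Without cKO Dex library 6, 718 of 12134 genes had an unadjusted p under 0.05, and 0 passed. Jun was at 43.2, 56.7 and 44.5 CPM in cKO Ctrl and at 49.6, 46.6 and 51.9 CPM in cKO Dex libraries, ranges that overlap. Its log2 difference was 0.04 ± 0.10, with a 95% interval from -0.18 to 0.26. Fosl2 was at 22.8, 27.9 and 23.6 CPM without and 24.9, 22.2 and 26.2 CPM with Dex (log2 -0.02 ± 0.10, interval -0.23 to 0.19). Batf3 was at 25.7, 29.8 and 28.6 CPM and at 29.5, 32.0 and 39.2 CPM (log2 0.26 ± 0.12, interval 0.02 to 0.50, adjusted p = 1.00).

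The difference of the Dex responses between genotypes was tested as an interaction, for which 2.95% of genes passed (1.57% higher and 1.38% lower in WT than in cKO). Of the 10 members 1 was higher and 2 were lower. Fosl2 responded more in WT cells, by 0.71 ± 0.14 on the log2 scale (adjusted p = 0.0073). For Jun the interaction was -0.71 ± 0.15 (adjusted p = 0.012) and for Fosb -3.36 ± 0.82 (adjusted p = 0.031), on 7 counts in all WT Dex libraries together. Fosb met the low-count filter only through WT Ctrl and cKO Dex libraries, where it was high, so its value is a description only. The Fosb call was lost in 9 of 12 fits with a library left out (adjusted p up to 0.113, without cKO Dex library 5). Those of Fosl2 and Jun held in all 12, and both were lost with limma on FPKM without a filter (adjusted p = 0.065 and 0.076). For Batf3 the interaction was 0.55 ± 0.16 (adjusted p = 0.084) and for Fos 0.68 ± 0.23 (adjusted p = 0.148), so a genotype difference in their responses was not shown. The Batf3 interaction passed with DESeq2 (adjusted p = 0.041), without the low-count filter (adjusted p = 0.0054), and without WT Ctrl library 3 or cKO Dex library 6 (adjusted p = 0.027 and 0.017). It also passed with a block for the replicate number. The Fos interaction passed without the filter (adjusted p = 0.022) and without cKO Ctrl library 6 (adjusted p = 0.031).

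Without Dex, 0 members were higher and 1 lower in cKO cells, and 4 had an unadjusted p under 0.05 (17.1% of all genes did). Junb was the one that passed, at 541, 552 and 540 CPM in WT Ctrl and 483, 480 and 459 CPM in cKO Ctrl libraries. The cKO libraries were all lower, by a log2 difference of -0.20 ± 0.04 (adjusted p = 0.020), or 1.15-fold; 2.36% of genes passed here, 1.38% higher and 0.986% lower in cKO. Leaving out WT Ctrl library 1 or 2 or cKO Ctrl library 6 ended the Junb call (adjusted p = 0.076, 0.090 and 0.064), while Fos and Atf3 passed as well with DESeq2 (adjusted p = 0.043 and 0.025). With Dex in both genotypes, 7 of 10 members passed, 1 higher (Jun) and 6 lower in cKO, where 6.9% of genes passed, 3.63% higher and 3.28% lower. This comparison shares its WT Dex and cKO Dex libraries with those above. Fos had the largest passing difference, at 25.6, 28.5 and 20.8 CPM in WT Dex and 10.8, 10.4 and 11.0 CPM in cKO Dex libraries (log2 -1.22 ± 0.17, adjusted p = 0.00012). Without Dex the Fos libraries were also apart, at 13.9 to 17.9 CPM in WT and 8.18 to 13.0 CPM in cKO cells, with a difference that did not pass (-0.54 ± 0.17, adjusted p = 0.098). Atf3 was at 67.5, 68.8 and 59.0 CPM against 45.7, 42.0 and 42.0 CPM (log2 -0.59 ± 0.11, adjusted p = 0.0020), and Fosl2, Batf3 and Jun differed by -0.79 ± 0.10, -0.62 ± 0.11 and 0.52 ± 0.11. Junb (-0.15 ± 0.04) and Jund (-0.90 ± 0.24) also passed, but of 6 fits with a library left out Junb passed only without cKO Dex library 6 and Jund only without cKO Dex library 4. For Atf3 the cKO and WT libraries also stood apart without Dex, at 47.3, 46.7 and 35.6 CPM against 55.8, 49.4 and 63.9 CPM, a difference that did not pass (-0.38 ± 0.11, adjusted p = 0.073).

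At day 9, after rest and restimulation, Jun was again lower and Fosl2 and Batf3 again higher with Dex. Of the 10 members 9 were tested, since Fosb did not pass the filter, and 2 were higher and 3 lower, in a comparison where 55.6% of 12320 genes passed (28.2% higher, 27.4% lower). The members' share, 5 of 9, is near that background. Fosb had 13 counts in the 3 Ctrl libraries together and 2, 6 and 3 counts in the Dex, IL27 and Dex+IL27 groups. The median log2 change of the 9 was 0.37, against 0.033 over all genes.

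Jun was at 40.4, 39.3 and 43.8 CPM in Ctrl and 17.4, 22.6 and 21.1 CPM in Dex libraries. The groups were far apart, with a log2 change of -1.04 ± 0.11 (adjusted p = 1.9e-06), a 2.06-fold fall. Fosl2 was at 21.6, 22.6 and 21.3 CPM in Ctrl and at 43.8, 43.6 and 50.2 CPM with Dex. It rose 2.06-fold, by 1.04 ± 0.12 on the log2 scale (adjusted p = 4.5e-06). Batf3 went from 118, 115 and 125 CPM to 166, 181 and 179 CPM, again without overlap (log2 0.53 ± 0.09, adjusted p = 0.00015). These 3 changes passed in all 15 alternative fits, as they did at day 3. Fosl2 per Jun, in FPKM, was 0.265 to 0.314 in Ctrl and 1.05 to 1.37 in Dex libraries, and of the 8 groups only this Dex group had more Fosl2 than Jun per length. Across the groups Jun was lowest with Dex (20.4 ± 2.7 CPM, SD, n = 3) and Dex+IL27 (23.4 ± 2.9 CPM) at day 9, whose libraries overlap, then in WT Dex cells at day 3 (34.3 ± 1.2 CPM), and the remaining groups overlapped their neighbours between 41.2 ± 2.3 and 54.9 ± 7.2 CPM. The RNA of Dex libraries held 5505 to 6054 CPM of the 8 heat shock genes listed against 10141 to 10622 CPM in Ctrl libraries, and 12 to 13.9 CPM of the 8 myeloid and dendritic genes against 4.03 to 4.91 CPM. Of the 3 myeloid genes tested, Cd68 (2.10 ± 0.22) and Itgam (3.40 ± 0.89) passed as higher and Cd14 did not pass. Lyz2, Fcer1g and Emr1 were at 0 in every Dex library, Emr1 also in every Ctrl library. The part of either list in the results was not tested.

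**Figure D4:**
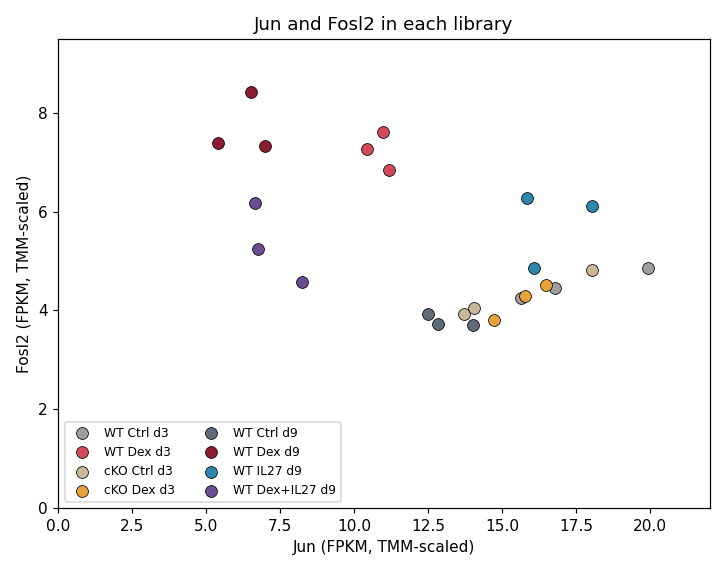
Each point is 1 library, with Jun on the horizontal and Fosl2 on the vertical axis, both in TMM-scaled FPKM, coloured by group. WT Dex libraries of both days lie up and to the left of their Ctrl libraries (Jun 10.4 to 11.2 against 15.6 to 19.9 FPKM at day 3, and 5.39 to 6.99 against 12.5 to 14 FPKM at day 9), while cKO Dex libraries lie among the cKO and WT Ctrl ones.

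Fosl1 and Junb also fell with Dex at day 9. Fosl1 was at 5.98, 2.58 and 5.15 CPM in Ctrl and 1.40, 2.47 and 1.49 CPM in Dex libraries, of which the highest Dex library was close to the lowest Ctrl one. The log2 change was -1.38 ± 0.45 (adjusted p = 0.017), and it was lost without library 1 or 3 of either group (adjusted p = 0.051 to 0.072). Limma on log2(FPKM + 1) gave -0.84. Junb was at 611, 582 and 692 CPM in Ctrl and 474, 590 and 514 CPM with Dex, ranges that overlap, and its change of -0.29 ± 0.10 (adjusted p = 0.022) was lost without Ctrl library 3 or Dex library 1 or 3 (adjusted p = 0.101, 0.109 and 0.071). Atf3 (-0.06 ± 0.18), Jund (0.42 ± 0.27), Fos (0.65 ± 0.75) and Maff (0.37 ± 0.58) did not pass. Fos was down to 32, 11 and 29 counts in Ctrl and 25, 39 and 36 counts in Dex libraries, and the 95% interval of its difference, -0.95 to 2.25, includes the change seen at day 3.

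IL27, a cytokine that acts on T cells, was compared with the same Ctrl libraries. It raised Fosl2, Jun and Batf3 and lowered Fosl1, Junb and Atf3, in all 3 higher and 3 lower of 9, where 57.4% of genes passed (29.3% higher, 28.1% lower). Heat shock genes summed to 5911 to 6733 CPM and myeloid genes to 13.1 to 18.3 CPM with IL27, both outside the Ctrl ranges above, and their part was not tested. Without IL27 library 1, which stood apart, all 6 of these members still passed, with log2 changes of 0.72 for Fosl2, 0.38 for Jun, 0.35 for Batf3, -1.72 for Fosl1, -0.34 for Junb and -0.52 for Atf3. Jun stood at 52.6, 58.4 and 51.6 CPM with IL27, above all Ctrl libraries (log2 0.36 ± 0.11, adjusted p = 0.0099), so its direction was opposite to that with Dex in the same experiment. Fosl2 was at 29.2, 36.5 and 37.6 CPM (log2 0.62 ± 0.12, adjusted p = 0.00053). Batf3 was at 129, 148 and 164 CPM, and its rise (0.26 ± 0.09, adjusted p = 0.021) was lost without Ctrl library 1 or 2 or IL27 library 3 (adjusted p = 0.060, 0.078 and 0.12) and with library totals in place of TMM (adjusted p = 0.071). Among the genes that fell, Fosl1 was at 0.531, 0.895 and 1.92 CPM (-2.05 ± 0.46, adjusted p = 0.0015), on 9, 15 and 35 counts, and -1.16 with limma on log2(FPKM + 1). Atf3 was at 40.4, 76.8 and 69.2 CPM against 108, 89.5 and 108 CPM in Ctrl libraries (-0.75 ± 0.19, adjusted p = 0.0028). Junb was at 413, 515 and 502 CPM (-0.44 ± 0.10, adjusted p = 0.0015).

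With Dex and IL27 together, 1 member was higher and 4 lower than in Ctrl cells, where 66.9% of genes passed (34.3% higher, 32.6% lower). Heat shock genes summed to 5339 to 5500 CPM and myeloid genes to 23.4 to 26.4 CPM in these libraries, and their part was not tested. The higher member was Fosl2 (0.53 ± 0.12), and the lower ones were Fosl1 (-2.66 ± 0.49), Jun (-0.83 ± 0.11), Junb (-0.76 ± 0.10) and Atf3 (-1.34 ± 0.19). Atf3 was at 36.0, 48.0 and 38.2 CPM and Junb at 350, 363 and 408 CPM, in both cases below every Ctrl library. The Fosl1 value was -1.36 with limma on log2(FPKM + 1). Jun was at 21.8, 26.8 and 21.7 CPM, close to the Dex libraries and below every IL27 library.

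Against Dex alone, Dex+IL27 cells had 0 members higher and 4 lower, and 32% of genes passed (14.9% higher, 17.1% lower). The changes were Atf3 by -1.28 ± 0.19 (adjusted p = 0.00020), Fosl2 by -0.51 ± 0.12 (adjusted p = 0.0052), Junb by -0.48 ± 0.10 (adjusted p = 0.0021) and Batf3 by -0.35 ± 0.09 (adjusted p = 0.0074). Fosl2 was at 31.3, 27.3 and 37.1 CPM with both agents, below the 43.6 to 50.2 CPM of Dex alone. Fos (-1.81 ± 0.82, adjusted p = 0.107) and Fosl1 (-1.28 ± 0.52, adjusted p = 0.071) did not pass, though their libraries did not overlap. Of 15 alternative fits Fos passed in 6, among them limma on FPKM (adjusted p = 0.036) and the fit without Dex+IL27 library 1 (adjusted p = 0.022), and Fosl1 in 4, among them DESeq2 (adjusted p = 0.042). Against IL27 alone, 3 members were lower and 0 higher, and 26.1% of genes passed (11.7% higher, 14.3% lower). Jun had the largest of these, -1.19 ± 0.11 (adjusted p = 5.6e-06), a 2.28-fold fall, while Junb (-0.33 ± 0.10) and Atf3 (-0.59 ± 0.19) were less secure. Leaving out IL27 library 2 or 3 or Dex+IL27 library 1 ended both calls, Dex+IL27 library 2 that of Junb and Dex+IL27 library 3 that of Atf3 (adjusted p up to 0.0956 for Junb and 0.160 for Atf3). Without IL27 library 1 the values were -1.21 for Jun, -0.42 for Junb and -0.82 for Atf3, all passing. Fos was high in 1 IL27 library and 1 Dex+IL27 library, both numbered 1, with 32 and 24 counts, while the other libraries of these groups had 2 to 5 counts. With all libraries Fos did not pass against Ctrl, with IL27 (-0.84 ± 0.81, adjusted p = 0.395) or with Dex+IL27 (-1.16 ± 0.83, adjusted p = 0.232). Each passed as lower in 1 of 15 alternative fits, the one without the high library (adjusted p = 0.020 and 0.026), which is the library that goes against the change.

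Whether the effects of the agents added up was tested as a Dex by IL27 interaction, in which 28.5% of genes passed (13.7% higher, 14.7% lower than the sum). Of 9 members 2 were lower than the sum and 0 higher. Fosl2 rose by 1.04 with Dex and 0.62 with IL27 but by 0.53 with both, an interaction of -1.12 ± 0.17 (adjusted p = 0.00030). For Batf3 the same values were 0.53, 0.26 and 0.17, with an interaction of -0.61 ± 0.13 (adjusted p = 0.0024). Both passed in all 20 alternative fits. Without IL27 library 1 they were -1.23 and -0.70, and Atf3 (-0.53, adjusted p = 0.15 with all libraries) also passed (-0.76, adjusted p = 0.0055). The Jun interaction was -0.14 ± 0.16 (95% interval -0.48 to 0.19).

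The Dex response was also compared between the days in 1 fit of all 24 libraries, in which 39.6% of 12666 genes passed (20.4% higher, 19.2% lower at day 9). Of 10 members 2 were lower and 0 higher. Fosl1 differed by -1.40 ± 0.55 (adjusted p = 0.046) and Junb by -0.28 ± 0.11 (adjusted p = 0.045). Of 12 fits with a library left out, Fosl1 passed in 3 and Junb in 2, with adjusted p up to 0.122 without Ctrl day 9 library 1 for Fosl1 and 0.158 without Ctrl day 9 library 3 for Junb. For Jun (-0.34 ± 0.16, 95% interval -0.67 to -0.01, not past the adjusted threshold), Fosl2 (0.38 ± 0.16, adjusted p = 0.061) and Batf3 (-0.25 ± 0.15, adjusted p = 0.209) a difference between days was not shown. With Dex, Fosl2 was at 42.2 ± 2.1 CPM (SD, n = 3) at day 3 and 45.9 ± 3.8 CPM at day 9.

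Among 23 other basic leucine zipper genes listed, 18 were tested at day 3. With Dex in WT cells 3 were higher and 4 lower, where 4.93% and 4.5% of all genes were. Their median log2 change was 0.045 against 0.0064 over all genes. Crem, a cAMP-responsive factor, rose by 0.68 ± 0.06 (adjusted p = 8.2e-07), Nfil3, a repressor known from NK cell and exhaustion programs, by 0.95 ± 0.12 (adjusted p = 5.4e-05) and Batf, the relative of Batf3 that pairs with Jun proteins and IRF4, by 0.48 ± 0.08 (adjusted p = 0.0011). Nfe2l1 and Ddit3, both linked to protein stress, fell (log2 -0.40 ± 0.07 and -0.31 ± 0.08). At day 9, 10 of 19 were higher and 2 lower with Dex, where 28.2% and 27.4% of all genes were. Nfil3 rose by 1.49 ± 0.16 and Ddit3 by 1.79 ± 0.10, while Batf (-0.16 ± 0.08, adjusted p = 0.123) and Crem (0.04 ± 0.10) did not pass. Maf, the large Maf factor of IL10-producing T cells, rose by 4.83 ± 0.67 (adjusted p = 2.3e-05). With IL27 alone 10 of the 19 were higher and 4 lower than in Ctrl cells, where 29.3% and 28.1% of all genes were. Dex+IL27 gave 10 higher and 3 lower, where 34.3% and 32.6% of all genes were. In cKO cells, 0 of 18 passed with Dex by edgeR, and 0 had an unadjusted p under 0.05.

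Of the 14 MAP kinase genes upstream of AP-1, 5 had an unadjusted p under 0.05 with Dex at day 3, which 22.9% of all genes had. Of the 14, 0 passed as higher and 1 as lower, where 4.93% and 4.5% of all genes did. The lower one was Map2k6, a kinase of p38 (-0.74 ± 0.18, adjusted p = 0.012). At day 9, 6 were higher and 2 lower, where 28.2% and 27.4% of all genes were, and together their share was near the 55.6% of all genes. Rps6ka3 (RSK2) was at 0.99 ± 0.16, Mapk3 (ERK1) at 0.70 ± 0.12 and Map2k3 at -0.48 ± 0.06. Of 6 genes for SRF and its partners, which drive Fos transcription, 0 passed at day 3 by edgeR, and 0 had an unadjusted p under 0.05. At day 9, where 55.6% of all genes passed, Elk4 was higher (0.89 ± 0.20), and Srf (-0.56 ± 0.17) and Elk3 (-0.56 ± 0.11) were lower. Among 6 NFAT and IRF genes, Nfatc2 rose at both days (0.45 ± 0.11 and 0.45 ± 0.12), while Irf4, the partner of BATF, had -0.01 ± 0.07 at day 3 and fell by 0.68 ± 0.15 at day 9. All these lists share the WT Dex and Ctrl libraries with the member tests.

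Another list held textbook glucocorticoid targets, which include inhibitors of AP-1, and receptor cofactors. Its targets were listed because glucocorticoids are known to induce them, so their rise with Dex is a check of the treatment. The list counted 3 higher and 0 lower of 6 tested at day 3, where 4.93% and 4.5% of all genes were. At day 9, 5 were higher and 0 lower, where 28.2% and 27.4% of all genes were. Tsc22d3, which encodes the leucine zipper protein GILZ that binds Fos and Jun, rose by 1.73 ± 0.11 (adjusted p = 8.4e-09) at day 3, from 57.5 ± 6.4 to 190 ± 17 CPM (SD, n = 3), and by 4.43 ± 0.12 at day 9, from 20.3 ± 2.6 to 447 ± 51 CPM. Fkbp5, a chaperone of the receptor, rose by 1.09 ± 0.10 and 1.78 ± 0.10. Per1, a clock gene, rose by 0.50 ± 0.08 and 1.29 ± 0.12. Dusp1, the phosphatase that inactivates JNK and p38, did not pass at either day (0.29 ± 0.10, adjusted p = 0.077, and 0.22 ± 0.19, adjusted p = 0.352). In cKO cells 0 of these 6 passed with Dex by edgeR, but 4 had an unadjusted p under 0.05, which 3.33% of all genes had, with a median log2 change of 0.17 over the 6. These were Per1 (0.29 ± 0.08), Fkbp5 (0.25 ± 0.10), Tsc22d3 (0.24 ± 0.11) and the corepressor gene Ncor1 (-0.19 ± 0.07). With IL27 alone, 3 of the 6 were higher and 0 lower than in Ctrl cells, where 29.3% and 28.1% of all genes were. Tsc22d3 was at 107 ± 13 CPM with IL27 alone and at 817 ± 32 CPM with Dex+IL27.

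Of 18 other immediate early genes, 17 were tested. With Dex at day 3, 2 were higher and 1 lower, where 4.93% and 4.5% of all genes were. Ier2 rose by 0.71 ± 0.21 and Zfp36l1, an RNA-decay factor, by 0.55 ± 0.08, and Egr2, which restrains T cell activation, fell by 0.61 ± 0.18 (adjusted p = 0.041). At day 9, 6 were higher and 5 lower, where 28.2% and 27.4% of all genes were. Dusp2 was at 1.96 ± 0.32, Zfp36 at 1.02 ± 0.16, Egr2 at -1.75 ± 0.34 and Myc at -0.76 ± 0.11. Egr1 did not pass at either day (-0.64 ± 0.22, adjusted p = 0.077, and -0.11 ± 0.14).

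The last list held T cell genes known to carry AP-1 sites. Of 20 listed, 14 were tested at day 3, and 2 were higher and 6 lower where 4.93% and 4.5% of all genes were, with a median log2 change of -0.74 against 0.0064 over all genes; at day 9, 2 of 16 were higher and 10 lower where 28.2% and 27.4% of all genes were, with a median of -2.28 against 0.033. Ifng, the effector cytokine, fell by 5.22 ± 0.29 (adjusted p = 2.1e-09) at day 3 and by 6.04 ± 0.52 at day 9. Spp1, encoding osteopontin, had log2 changes of -4.29 ± 0.68 and -3.52 ± 0.27, at day 3 from 145 to 7 counts over the group. The chemokine gene Ccl3 had -1.40 ± 0.18 and -3.91 ± 0.33, the cytokine gene Tnf -0.94 ± 0.15 and -2.62 ± 0.20, and Gzmb, a cytotoxic protease, -0.45 ± 0.05 and -1.36 ± 0.07, all passing. Plaur, the urokinase receptor gene, went the other way, from 15.3 ± 1.1 to 140 ± 8.0 CPM (SD, n = 3) at day 3 and from 2.64 ± 0.60 to 109 ± 0.87 CPM at day 9. At day 9 the list also had 2 of 16 higher and 10 lower with IL27 alone (median -1.40), where 29.3% and 28.1% of all genes were. With Dex+IL27, 1 was higher and 12 lower than in Ctrl cells (median -1.77), where 34.3% and 32.6% of all genes were. IL27 alone lowered Plaur to 0.137 ± 0.092 CPM (7 counts over the group). In cKO cells, 0 of 14 of these genes passed with Dex by edgeR, and 2 had an unadjusted p under 0.05, which 3.33% of all genes had.

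**Figure D5:**
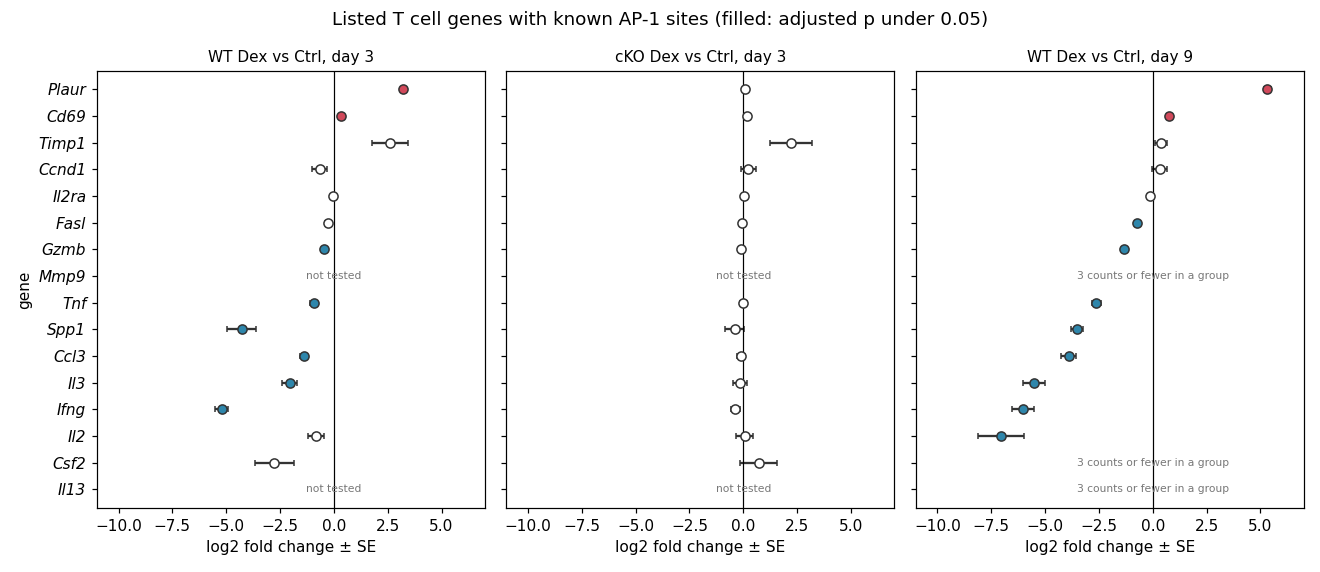
Points give the log2 fold change ± SE with Dex of the 16 listed T cell genes with known AP-1 sites that were tested in any panel, in WT cells at day 3, cKO cells at day 3 and WT cells at day 9; filled points have an adjusted p under 0.05 (red higher, blue lower). Most filled points are left of 0 in WT cells, Plaur and Cd69 are right of 0, no point is filled for cKO cells, and genes with 3 counts or fewer in a group are marked in place of a point.

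The members' patterns were also set side by side over the 24 libraries, as log2 CPM with each day's mean removed. The libraries share groups and day means, so these correlations are descriptions. Fosl2 and Batf3 ran together (Pearson r = 0.83), as did Junb and Atf3 (0.88), Fosl1 and Atf3 (0.79) and Fosl1 and Junb (0.78), while Jun ran against Fosl2 (-0.54). Among 8845 genes that reached a group mean of 10 CPM or more, those most like Jun were Procr (0.95), Prep (0.94) and Trat1 (0.91). Hif1a was among the 3 most like Fosl2 (0.89, after Wnk1 at 0.90) and was the gene most like Batf3 (0.90). Orc1 (0.92) was most like Junb and Rrp1b (0.93) most like Atf3. For Fos the highest was Cul7 (0.87), for Fosl1 Fam118b (0.92), and for Fosb, Jund and Maff, all with few counts, the highest were Ufd1l (0.84), Kri1 (0.72) and Tmem176b (0.70).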

How the data were processed

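RNA was measured in 24 libraries of cultured CD8+ T cells, 3 per group, and groups were taken from the labels. The authors deposited a table of estimated counts, not normalized, and a table of FPKM that, per its name, was TMM-scaled. Replicates were not pooled in either deposited table. The submitters' processing notes name TopHat, RSEM, DESeq and the mm9 build, without versions or roles. Reads (pairs of 38 nt) carried no molecular identifiers, so counts include amplified copies.

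After rounding, counts went into the quasi-likelihood test (two-sided) of edgeR 4.0.16 in R 4.3.3, with TMM factors, filterByExpr (minimum count 10, minimum total 15) and a prior count of 0.125. Each day's 12 libraries shared 1 fit, and all 24 entered the difference between days. The 12 comparisons were adjusted over all genes tested by Benjamini-Hochberg, with a threshold of 0.05. CPM values use TMM-scaled totals. Intervals are 95%. Alternatives were other size factors or library totals, no low-count filter, DESeq2 1.42.0, limma 3.58.1 on log2 of FPKM plus 1 or plus 0.1 (requiring a group mean of 1 FPKM, or no filter), fits of only the groups compared, a block for the replicate number, and fits that left out 1 library. The edgeR, DESeq2 and limma fits were tested on simulated data. Figures were drawn with matplotlib 3.10.9 (Python 3.11.15).

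The members and the 13 gene lists were chosen with earlier results of these data known. Named genes were all 10 members, Nr3c1, Fkbp5, Tsc22d3 and Dusp1, and from each list the 4 genes with the lowest p for Dex in WT cells at day 3 and at day 9, plus the 3 genes most like each member (log2 CPM, prior count 2). Cd69, the second gene of its list to rise with Dex, was named after its values were seen. Promoter sequences came from RefSeq (GRCm38.p6) and were matched by symbol, and an mm9 annotation was not used here.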

Additional observations from a re-analysis of the deposited data

Results flagged for a closer look

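The following members changed differently in different settings by a test of the difference itself, the interaction term of edgeR with adjustment over all genes. The Dex response at day 3 differed between WT and cKO cells for Fosl2, by 0.71 ± 0.14 on the log2 scale (adjusted p = 0.0073), for Jun, by -0.71 ± 0.15 (adjusted p = 0.012), and for Fosb, by -3.36 ± 0.82 (adjusted p = 0.031). All 3 WT Dex libraries lay on the stated side of all 3 WT Ctrl libraries for each gene. These libraries also enter the interaction by which the genes were picked, so this adds no support. The share of all genes without overlap was not counted. The Fosb value rests on 7 counts in the WT Dex group, and it passed in 3 of 12 fits with a library left out. Fosb met the low-count filter only through the WT Ctrl and cKO Dex groups, where it was high, so no support is drawn from it. These were 3 of 10 members, where 2.95% of all genes passed.

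At day 9 the combination of Dex and IL27 gave less than the sum of the single responses for Fosl2, by -1.12 ± 0.17 (adjusted p = 0.00030), and for Batf3, by -0.61 ± 0.13 (adjusted p = 0.0024). These were 2 of the 9 members tested, where 28.5% of all genes passed. The Dex response at day 9 was below that at day 3 for Fosl1, by -1.40 ± 0.55 (adjusted p = 0.046), and for Junb, by -0.28 ± 0.11 (adjusted p = 0.045), and the different culture histories of the days cannot be told apart from this difference. These were 2 of 10 members, where 39.6% of all genes passed. Of 12 fits with a library left out, Fosl1 passed in 3 and Junb in 2.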

How the results depend on the processing

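Of 114 member changes, 43 passed, 28 of them under every alternative, and 0 passing values changed sign. Counts of passing members that moved by over 1.5 times were, for the genotype by Dex interaction, 5 without the low-count filter and 1 with limma on FPKM without a filter; for cKO against WT without Dex, 2 with library totals and 3 both without the filter and with DESeq2; for Dex+IL27 against IL27, 1 with limma without a filter; and for the Dex response between days, 1 with a pseudocount of 0.1, 0 without an FPKM filter and 1 with the replicate block. Leaving out 1 library gave 3 to 4 passing members for WT Dex at day 3 (3 without WT Dex library 1 or 2), 0 to 1 for cKO against WT without Dex, 3 to 5 for WT Dex at day 9, 1 to 3 for Dex+IL27 against IL27 and 0 to 2 for the Dex response between days.

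Values that changed sign were not passing. For WT Dex at day 3, Fosl1 was -0.00456 with limma (also without a filter) and -0.020 with a pseudocount of 0.1, and -0.18 to 0.31 with a library left out. For cKO Dex, Atf3 was -6.19e-06 with library totals, -0.000746 without the filter and -0.00111 with only the groups compared; with a library left out Atf3 ran from -0.12 to 0.069, Fos from -0.27 to 0.027, Fosl1 from -0.35 to 0.18, Jun from -0.037 to 0.17 and Fosl2 from -0.075 to 0.076. For the genotype by Dex interaction Fosl1 was -0.00764 with a pseudocount of 0.1 and -0.13 to 0.40 with a library left out. Other leave-one-out ranges were, for cKO against WT without Dex, Batf3 -0.16 to 0.047 and Fosl1 -0.44 to 0.093; for WT Dex at day 9, Atf3 -0.15 to 0.060; for Dex+IL27 against Dex, Jund -0.35 to 0.027 and Maff -0.081 to 0.77; for Dex+IL27 against IL27, Fos -1.99 to 1.55, Jund -0.080 to 0.20, Maff -0.31 to 0.55, Fosl1 -0.94 to 0.042 and Fosl2 -0.21 to 0.018; for Dex by IL27, Maff -0.68 to 0.18, Junb -0.14 to 0.063 and Fos -2.64 to 0.90; and for the Dex response between days, Fosb -0.31 to 0.58 and Fos -0.24 to 0.36. That last response was -0.00915 for Fosb with library totals and -0.12 with DESeq2, and -0.23 for Fos with limma (also without a filter). The causes were not tested.

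Deviations of same-numbered libraries had correlations of -0.022 to 0.18 over 6 pairs at day 3 (0.045 to 0.18 in cKO cells) and -0.18 to 0.30 over 18 pairs at day 9. Pairs with different numbers had -0.14 to 0.062 over 12 pairs at day 3 and -0.30 to 0.20 over 36 pairs at day 9. The mean was 0.051 for same and -0.025 for different numbers at day 3, and 0.0018 and -0.00085 at day 9. Not every same-numbered pair was above 0.1, a cut set by choice. The labels do not say what the numbers mean, so the replicate block was kept as an alternative and not taken as a pairing. With it the Batf3 genotype by Dex interaction passed (0.56, adjusted p = 0.042). Library totals shifted the median of all genes in Dex+IL27 against Ctrl from 0.050 to -0.071. Fosb, Maff, Jund and, at day 9, Fos and Fosl1 rest on few counts.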
